A study of Mus musculus with 6 samples.

Results

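The effect of losing PARP-1 in cells that already carry a Wrn mutation was read from 4 of 6 arrays, as the mean of the 2 arrays of the Wrn and PARP-1 double mutant minus the mean of the 2 arrays of the Wrn mutant, for each of 16504 named genes. The cells were mouse embryonic fibroblasts, connective-tissue cells grown out of dissociated embryos, and all arrays of the series compared a mutant with wild-type cells. In the Wrn mutant a stretch of the Wrn helicase is deleted in frame, and the double mutant has that deletion together with a PARP-1 null genotype, so the helicase deletion was common to both sides. The remaining 2 arrays held PARP-1 null cells without the Wrn deletion. The strain labels give a 129/Sv-Black Swiss background for these cells. Embryos were 15.5 days old, cells from 3 embryos of 1 litter were pooled, and cytoplasmic RNA was taken at passage 2 after 10 population doublings of cells that were not synchronised. A second pool from another litter was made for every genotype. A sample is therefore a pool of a primary culture and not a clone, and both mutations are germline changes.

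PARP-1 is a nuclear enzyme that binds DNA strand breaks and uses NAD+ to attach poly(ADP-ribose) chains to itself and to other proteins, which helps to recruit repair factors. Wrn is a RecQ helicase and exonuclease that works on stalled replication forks and on broken or telomeric DNA, and its loss in people causes Werner syndrome, a disease of early ageing. The proteins are known to bind each other. Fibroblasts respond to DNA damage and to stray nucleic acids through p53 and through interferon-stimulated genes, and their cell cycle genes follow how many of the cells are dividing.

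Every value below is a log2 ratio of mutant over wild type on one array, first array then duplicate, or a difference between such ratios. Where 2 pairs of values are set against each other, the Wrn mutant pair comes first and the double-mutant pair second. The SE of a difference is that of the 2 means, with n = 2 arrays a genotype. The deposited values do not state the direction, and mutant over wild type is likely, resting on Parp1 itself. With the sign turned, every direction given here would be mirrored. Wild-type RNA carried the Cy5 dye and mutant RNA the Cy3 dye on all arrays, so a bias of a probe toward one dye cancels between the 2 mutants. An array had from 16.9% to 23.7% of its spots at exactly 0, and whether these were measured was not stated. Across all named genes, Pearson correlations between arrays ran from 0.62 to 0.853. The double-mutant arrays correlated at 0.81 with each other and the Wrn mutant arrays at 0.767, while the first Wrn mutant array correlated at 0.828 with the first PARP-1 null array. The duplicate double-mutant array carries a wild-type strain label that conflicts with its title. Y-linked genes differed between arrays of one genotype: Eif2s3y was 0.84 and -4.48 in the Wrn mutant and 0.12 and 2.0 in the double mutant. Uty was 0.59 and -5.65 against -1.9 and 0.11, so the arrays of a genotype did not share one balance of Y-linked RNA relative to wild type, and its part in the results below was not tested.

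Parp1 was the check on the labels, through the separation of the genotypes alone. That it was low rather than high checks nothing, since the direction of the ratios was inferred from it. It was -0.12 and -0.31 on the Wrn mutant arrays and -2.97 and -2.59 on the double-mutant arrays, and the duplicate double-mutant array is the one at -2.59. The groups lay far apart and both double-mutant arrays were low, as were the PARP-1 null arrays at -2.61 and -2.3. The difference was -2.56 (SE 0.21), with a limma adjusted p of 0.105 after Benjamini-Hochberg correction, above the threshold of 0.05. The sources used here do not say where either gene's probe lies relative to its disrupted part, so the Wrn value checks nothing by itself. Wrn, mutant on both sides, was 0.84 and 0.58 against 0.25 and 0.71 on these arrays, which overlap, with a difference of -0.23 (SE 0.27) and an adjusted p of 0.719 in limma. Over the 20 measured genes of ADP-ribose turnover, Parp1 included, the median difference was -0.27, with 12 below 0 and 8 above. The groups were separate with the double mutant lower in 9 of them (45%, against 17.6% of all named genes) and higher in 5 (25%, against 24.0%). Without 1 of the 4 arrays the median ran from -0.26 to -0.16. Known interferon targets were 3 of the lower members. Parp12 was 0.13 and 0.54 in the Wrn mutant and -1.66 and -0.54 in the double mutant, Parp14 0.44 and 1.21 against 0.0065 and 0.03, and Parp9 0.66 and 1.58 against 0.057 and 0.27. Parp16, a mono-ADP-ribosyltransferase of the endoplasmic reticulum, was higher in the double mutant at 0.93 and 0.75 against 0.21 and 0.38, and Parp3 was 0.29 higher. Parp1 was the 1 member at least 2-fold apart (5% of the list lower, against 1.04% of all named genes).

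No named gene passed the test at an adjusted p of 0.05 in limma with Benjamini-Hochberg correction. Without correction 2500 of 16504 genes (15.1%) had a p under 0.05, and the smallest adjusted p was 0.0557, for Ifi202b. The arrays were therefore described by a rule without a test: the nearest arrays of the 2 genotypes had to lie at least 2-fold apart. By this rule 225 genes (1.36%) were higher in the double mutant and 171 (1.04%) lower, 2.4% in either direction. Groups that merely did not overlap were far more common, at 24.0% higher and 17.6% lower, so separation alone says little of a single gene. The median difference over all named genes was 0, and 49.6% of them lay above 0. Of the 225 genes, 73 differed by at least 2 on the log2 scale and 19 by at least 3. The 171 lower genes held 70 and 17 such genes. A spot at exactly 0 on one of the 4 arrays was present in 25 of the 225 and 20 of the 171. These counts depended on single arrays. With 1 of the 4 arrays left out, from 461 to 577 genes were at least 2-fold higher and from 315 to 897 lower. Such a rise comes by construction, since fewer arrays must be separate. Counts of genes past the test are not given for these fits, in which 1 genotype has no spread of its own. With exact zeros taken as missing, 39 genes passed, Parp1 (adjusted p = 0.0469 in limma) and Ifi202b (0.00428) among them.

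Ifi202b was set apart most among the named genes. It belongs to the Ifi200 family of interferon-inducible proteins, which includes sensors of DNA. Its ratio was -1.53 and -1.37 on the Wrn mutant arrays and 4.53 and 4.8 on the double-mutant arrays, so that it lay below wild type in one genotype and far above it in the other. The difference was 6.11 (SE 0.16), with an adjusted p of 0.0557 (limma, Benjamini-Hochberg). Next came secreted proteins of leukocytes and platelets. S100a8, a subunit of calprotectin from neutrophils and monocytes, was -0.76 and -1.58 in the Wrn mutant and 4.89 and 4.64 in the double mutant, a difference of 5.94 (SE 0.43). Ppbp, a chemokine stored in platelets, was -0.64 and -1.69 against 4.72 and 3.94, a difference of 5.5 (SE 0.66). Both genes were below wild type on each Wrn mutant array and far above it on each double-mutant array. In RNA of a whole culture, a change in the number of cells of one type and a change in RNA per cell cannot be told apart.

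The others among the 15 genes of largest separation with the double mutant higher came from varied families. Cck, which encodes the peptide hormone cholecystokinin, was -2.87 and -1.96 against 0.94 and 2.25, and U90926, a gene of unsettled function, was -2.69 and -2.76 against 0.98 and 2.34. For both, the Wrn mutant lay below wild type and the double mutant above. In contrast, several genes sat close to wild type in the Wrn mutant and high in the double mutant. Atp10d, a phospholipid-transporting ATPase, was -0.02 and -0.78 against 4.05 and 3.35, Otud7a, a deubiquitinase, 0.19 and -0.15 against 4.7 and 3.49, and Ptprv, a receptor-type phosphatase, 0.077 and 0.70 against 5.13 and 3.79. The neural crest transcription factor Sox10 was 0.42 and -0.22 against 3.88 and 3.3, and Gbp2b, an interferon-inducible guanylate-binding protein, 0.54 and -0.011 against 4.13 and 3.46. Gchfr, the feedback regulator of GTP cyclohydrolase in tetrahydrobiopterin synthesis, was -1.22 and -0.028 against 3.9 and 2.82. Of these 6, Atp10d and Gchfr were clearly below wild type on 1 Wrn mutant array, and all were high on both double-mutant arrays. Differences for the remaining 4 were 3.24 (SE 0.25) for Tepp, 2.8 (SE 0.029) for the cornified envelope gene Lce1i, 3.14 (SE 0.28) for Chil3, a chitinase-like protein of macrophages, and 2.93 (SE 0.22) for the histone H2B gene H2bc18. H2bc18 stood apart in the single mutant, at 6.62 and 5.91 on the PARP-1 null arrays against 3.07 and 2.65 on the double-mutant arrays. Adjusted p-values of the 15 genes ran from 0.0557 to 0.329 (limma, Benjamini-Hochberg).

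**Figure D1:**
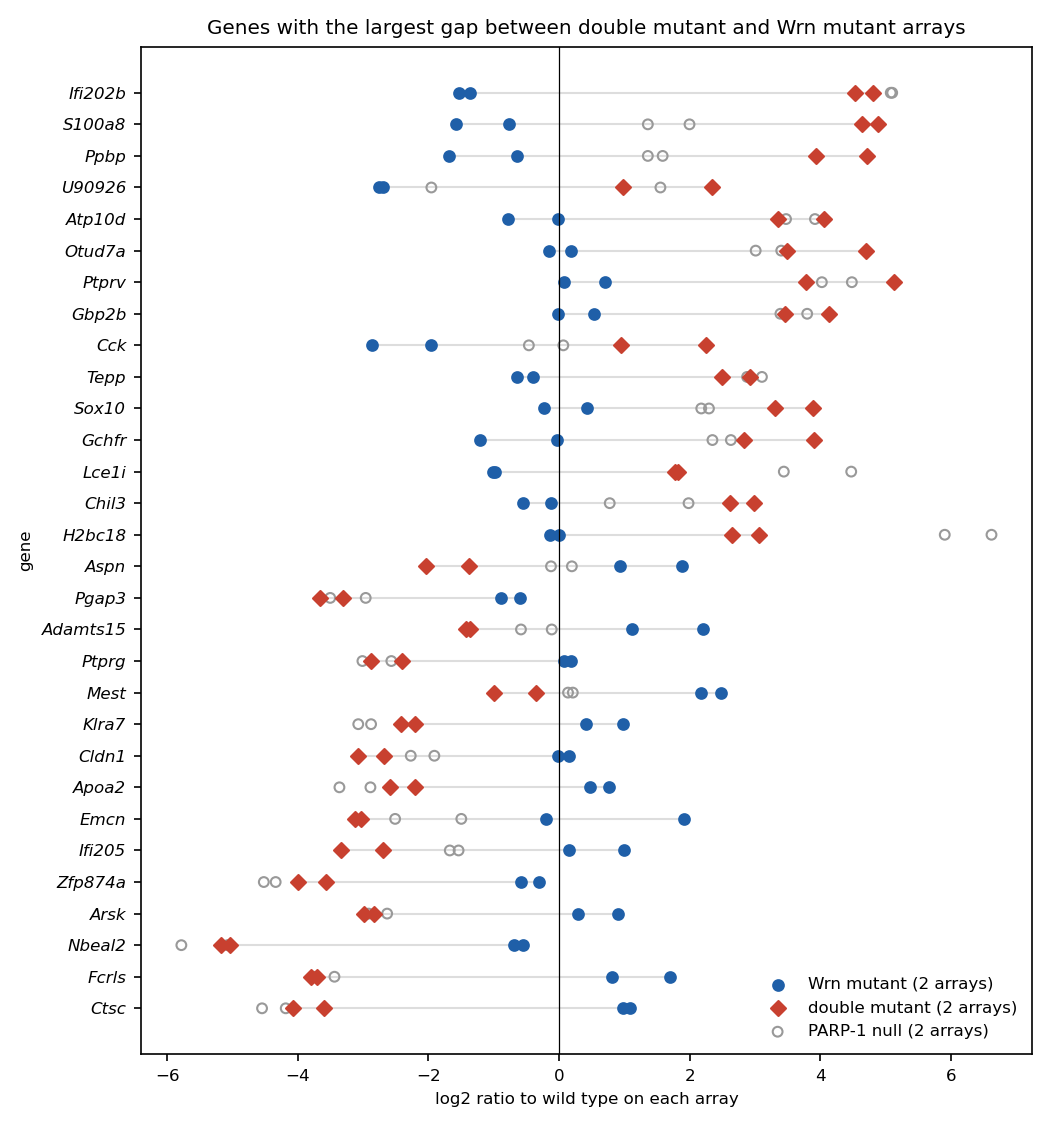
Log2 ratio to wild type on each array for the 15 genes with the largest gap in each direction. Filled circles are the 2 Wrn mutant arrays, diamonds the 2 double-mutant arrays and open circles the 2 PARP-1 null arrays. Ifi202b is at the top, with a difference of 6.11 between double mutant and Wrn mutant, and Ctsc at the bottom with -4.87.

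On the lower side, Ctsc led. It encodes cathepsin C, the lysosomal protease that activates granule proteases of leukocytes, and was 0.98 and 1.08 on the Wrn mutant arrays and -4.08 and -3.6 on the double-mutant arrays, a difference of -4.87 (SE 0.24). Fcrls, an Fc receptor-like gene of microglia and macrophages, was 1.69 and 0.81 against -3.71 and -3.8, a difference of -5.0 (SE 0.45). Nbeal2, needed for platelet alpha-granules, was -0.56 and -0.69 against -5.03 and -5.18, a difference of -4.49 (SE 0.10). Ctsc and Fcrls were above wild type in the Wrn mutant and far below it in the double mutant, whereas Nbeal2 lay below wild type in both. A similar crossing was seen for the paternally expressed imprinted gene Mest, at 2.48 and 2.17 against -0.36 and -0.99, and for the matrix genes Aspn, at 0.94 and 1.88 against -2.04 and -1.39, and Adamts15, a proteoglycan-cleaving protease, at 1.12 and 2.2 against -1.37 and -1.42. Ifi205, a neighbour of Ifi202b in the same family, went the other way from it, at 0.15 and 1.0 against -3.35 and -2.7. Emcn, an endothelial sialomucin, was -0.21 and 1.91 in the Wrn mutant, where the arrays were spread over more than 2 units, and -3.12 and -3.03 in the double mutant. Near wild type in the Wrn mutant but low in the double mutant were the tight junction gene Cldn1, at -0.021 and 0.16 against -2.68 and -3.08, and Ptprg, a receptor-type phosphatase, at 0.078 and 0.18 against -2.88 and -2.41. The Ptprg value is a mean of 2 spots whose differences lay 4.58 apart, so the spots of this gene disagreed. Differences for the rest were -3.51 (SE 0.32) for the lysosomal sulfatase gene Arsk, -3.34 (SE 0.26) for the zinc finger gene Zfp874a and -3.01 (SE 0.24) for apolipoprotein A-II. Klra7, a natural killer cell receptor, differed by -3.01 (SE 0.30) and Pgap3, which remodels GPI anchors, by -2.75 (SE 0.23). Adjusted p-values of these 15 ran from 0.103 to 0.233 in limma.

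Genes with an exact 0 on one of the 4 arrays were kept apart, since such a value may be a placeholder. Rnase2a, an eosinophil-associated ribonuclease, was exactly 0 on both Wrn mutant arrays and 4.92 and 3.91 in the double mutant. Defb1, a beta-defensin, was exactly 0 on both Wrn mutant arrays and 2.79 and 2.91 in the double mutant, and the odorant receptor gene Olfr509 was 0.32 and -0.0092 against 2.69 and 2.76. The Olfr509 value is a mean of 2 spots whose differences lay 4.78 apart, so its spots disagreed too. On the lower side, the imprinted zinc finger gene Zim1 was 2.44 and 1.64 in the Wrn mutant and exactly 0 on both double-mutant arrays. Plekhd1 was -0.16 and 0 against -1.75 and -1.78, and 4933425B07Rik was 1.5 and 2.09 in the Wrn mutant and exactly 0 on both double-mutant arrays. In 4 of these 6 genes a whole group was listed at 0, and no fold is given for them.

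Cell division genes lay higher in the double mutant. Over the 54 measured mitosis genes the median difference was 0.81, against 0 for all named genes, and 48 of the 54 lay above 0. The groups did not overlap, with the double mutant higher, for 41 of them (75.9%, against 24.0% of all named genes), and 8 (14.8%, against 1.36%) were at least 2-fold apart. None passed the test. Median ratios to wild type were -0.36 and -0.15 on the Wrn mutant arrays and 0.70 and 0.50 on the double-mutant arrays, so the list lay below wild type in one genotype and above it in the other. The mitotic kinase gene Aurka was -0.57 and -0.30 in the Wrn mutant and 1.32 and 1.03 in the double mutant. Cdc20, the activator of the anaphase-promoting complex, was -0.52 and -0.26 against 1.32 and 0.95, and Birc5, which encodes survivin of the chromosomal passenger complex, -0.79 and -0.30 against 0.91 and 1.16. All 3 were below wild type on each Wrn mutant array and above it on each double-mutant array. The cytokinesis regulator Racgap1 was -0.098 and -0.12 against 1.17 and 1.07, and the mitotic cyclin gene Ccnb2 -0.13 and -0.19 against 1.24 and 1.01. Differences were 1.61 (SE 0.19) for Aurka, 1.52 (SE 0.23) for Cdc20, 1.58 (SE 0.27) for Birc5, 1.23 (SE 0.053) for Racgap1 and 1.29 (SE 0.12) for Ccnb2. With 1 of the 4 arrays left out, the list median ran from 0.71 to 0.93 and from 10 to 19 members were at least 2-fold higher. Over all named genes that count rose too, from 225 to between 461 and 577, since fewer arrays must be separate. Adjusted p-values of the list's members were no lower than 0.103 in limma with Benjamini-Hochberg.

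Many mitotic genes carry a pair of promoter elements that restrict their transcription to G2 and M phase, the cell cycle homology region, of which TTTGAA is a common form, and the CCAAT box bound by NF-Y. Promoters of RefSeq (assembly GRCm38.p6), from 250 bases before to 50 after the annotated start, were found for 45 of the 54 genes and for 13200 measured genes in all. TTTGAA stood on either strand in 31 of the 45 (68.9%), against 14.4% of all, and CCAAT in 35 (77.8%), against 38.6%. Both were present in 28 (62.2%), against 5.77%. The promoters of 3 members at least 2-fold apart are shown because they hold both elements, which stand in capitals on either strand. They lie at chr2:172370521-172370820 on the minus strand for Aurka, chr4:118437294-118437593 on the minus strand for Cdc20 and chr15:99651607-99651906 on the minus strand for Racgap1.
Aurka: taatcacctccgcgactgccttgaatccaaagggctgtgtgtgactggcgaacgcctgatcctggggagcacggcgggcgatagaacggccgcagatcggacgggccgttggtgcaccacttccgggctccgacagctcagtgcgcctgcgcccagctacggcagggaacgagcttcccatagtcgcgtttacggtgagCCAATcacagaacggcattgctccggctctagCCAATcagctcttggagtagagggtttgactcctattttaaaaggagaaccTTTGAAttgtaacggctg
Cdc20: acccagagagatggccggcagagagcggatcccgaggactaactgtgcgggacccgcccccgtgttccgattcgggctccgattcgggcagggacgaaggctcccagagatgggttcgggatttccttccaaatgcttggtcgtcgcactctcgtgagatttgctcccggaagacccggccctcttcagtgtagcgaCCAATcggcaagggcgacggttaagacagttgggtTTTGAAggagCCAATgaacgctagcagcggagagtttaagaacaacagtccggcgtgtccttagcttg
Racgap1: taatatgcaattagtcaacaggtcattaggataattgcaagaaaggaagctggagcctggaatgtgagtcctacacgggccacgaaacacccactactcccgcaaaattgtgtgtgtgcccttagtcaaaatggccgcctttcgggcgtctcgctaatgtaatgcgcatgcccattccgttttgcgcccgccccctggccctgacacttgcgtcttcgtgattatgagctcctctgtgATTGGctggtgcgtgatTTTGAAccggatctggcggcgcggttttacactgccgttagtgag
Mitosis genes with both elements had a median difference of 0.84 over 28 genes, and those without both 0.74 over 17. Outside the list, 733 genes with both had a median of 0, the same as all named genes. A match of letters is a description of the promoter and not a bound site.

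DNA replication genes shared the direction. Of 48 measured genes 45 lay above 0, with a median difference of 0.72. The groups were separate, double mutant higher, in 35 (72.9%, against 24.0% of all named genes), and 3 (6.25%, against 1.36%) were at least 2-fold apart. Orc1, the large subunit of the origin recognition complex, was -0.55 and -0.17 in the Wrn mutant and 1.82 and 1.24 in the double mutant, a difference of 1.89 (SE 0.35). Rpa1, the large subunit of the single-strand binding protein RPA, was -0.75 and -0.73 against 1.25 and 0.59, a difference of 1.66 (SE 0.33), and Rrm1, the large subunit of ribonucleotide reductase, was 0.048 and -0.0017 against 1.12 and 1.3, a difference of 1.19 (SE 0.091). Orc1 and Rpa1 were below wild type on both Wrn mutant arrays, while Rrm1 was at wild type. The helicase subunit gene Mcm5 differed by 1.43 (SE 0.37) and thymidine kinase Tk1 by 1.29 (SE 0.30). The list median was -0.54 on the first Wrn mutant array and -0.038 on the duplicate, so most of the deficit against wild type lay on 1 array. Without the first Wrn mutant array the list median difference was 0.51, and without the duplicate it was 0.96. The 3 members at least 2-fold apart became 15 without the duplicate Wrn mutant array and 15 without the duplicate double-mutant array. The count of all named genes at least 2-fold higher went from 225 to 461 and 577 in these settings. Genes that govern entry into the cycle lay on both sides. The 24 genes of G1 cyclins and CDK inhibitors had a median of -0.13, with 12 on each side of 0, and it ran from -0.3 to 0.15 over the other settings. The imprinted CDK inhibitor Cdkn1c was 1.15 and 2.25 against -0.52 and 0.12, lower in the double mutant, while Cdk2, the kinase of S phase entry, was -0.069 and 0.077 against 1.17 and 0.52 and the retinoblastoma gene Rb1 0.70 and 0.58 against 1.37 and 1.28.

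**Figure D2:**
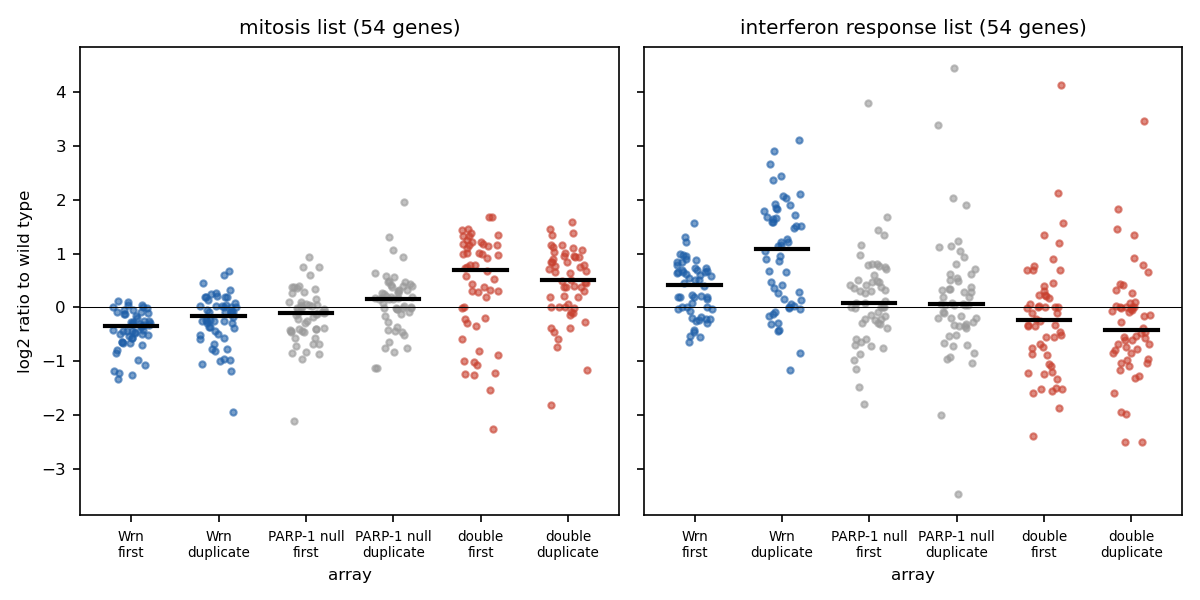
Log2 ratio to wild type of each member of the mitosis list (left) and the interferon response list (right), by array, with a bar at the array's list median. Mitosis medians are -0.36 and -0.15 in the Wrn mutant and 0.70 and 0.50 in the double mutant, and interferon medians 0.42 and 1.09 against -0.24 and -0.42.

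Repair genes had smaller medians than replication genes with all arrays. Double-strand break and Fanconi anaemia genes had a median difference of 0.29 over 36, with 25 above 0. The damage-marking histone gene H2ax was 0.023 and 0.34 against 1.43 and 1.36, a difference of 1.21 (SE 0.16). It was the 1 member at least 2-fold higher (2.78%, against 1.36% of all named genes), and none was that far lower. Bard1, the partner of Brca1, was -0.75 and 0 against 1.76 and 0.84, and the breast cancer susceptibility gene Brca2 -0.35 and -0.36 against 1.08 and 0.25. These were higher in the double mutant, whereas the end-joining gene Xrcc4, at -0.16 and 0.082 against -1.36 and -0.66, and the checkpoint kinase gene Atm, at -0.092 and -0.12 against -0.64 and -0.61, were lower. Base excision and single-strand break repair, the pathway in which PARP-1 itself acts, had a median of 0.29 over 21 genes, with 17 above 0. No member was at least 2-fold apart, and Lig1, the replicative DNA ligase, was furthest apart at -0.48 and -0.35 against 0.65 and 0.28. Aplf, a factor that binds poly(ADP-ribose), was -0.069 and 0.30 against 1.18 and 0.60, and the thymine glycosylase gene Tdg 0.072 and -0.25 against 0.32 and 0.62. RecQ helicases and their partners had a median of 0.40 over 15 genes, 12 of them above 0. The relatives of Wrn were closer together than Rpa1, which this list shares with replication: Blm, lost in Bloom syndrome, was -0.093 and 0.0032 against 0.72 and 0.45 and Recql4 -0.33 and -0.36 against 0.47 and 0.042.

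NAD+ is the substrate of PARP-1, and the 20 genes of sirtuins and NAD metabolism had a median difference of 0.074, near that of all genes, and -0.13 without the first Wrn mutant array. Nevertheless, 1 member was at least 2-fold lower (5%, against 1.04% of all named genes) and 1 at least 2-fold higher (5%, against 1.36%). Nnmt, which methylates nicotinamide, was -0.31 and 0.057 in the Wrn mutant and -2.12 and -2.18 in the double mutant, a difference of -2.02 (SE 0.19). Nmnat1, the nuclear enzyme that makes NAD+, was -0.29 and -0.17 against 1.5 and 0.91, a difference of 1.44 (SE 0.30). Both Wrn mutant arrays lay near wild type for these genes. Nampt, which salvages nicotinamide, was lower in the double mutant, at 0.30 and 0.40 against -0.67 and -0.31, and Nmrk1, a nicotinamide riboside kinase, -0.035 and 0.22 against -0.57 and -0.74.

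Interferon-stimulated genes lay lower in the double mutant. Over 54 measured genes the median difference was -0.93, and 45 lay below 0. The groups were separate with the double mutant lower in 33 (61.1%, against 17.6% of all named genes), and 12 (22.2%, against 1.04%) were at least 2-fold apart. None passed the test. Gbp2b, which was higher in the double mutant, had the lowest adjusted p of the list, 0.111 in limma. Ifit3, which binds viral RNA with its relatives, was -0.023 and 1.72 in the Wrn mutant and -1.88 and -2.5 in the double mutant. Usp18, the feedback protease that removes ISG15, was 0.61 and 1.85 against -1.2 and -1.29, and Iigp1, an immunity-related GTPase, 0.63 and 3.11 against -1.1 and -1.95. The Wrn mutant arrays were unlike each other in these genes, with the duplicate higher, and the double-mutant arrays were below wild type in all 3. The chemokine gene Cxcl10 was 0.18 and 0.018 against -1.56 and -1.99, and Ifit1 0.66 and 2.1 against -0.89 and -0.98. Differences were -3.04 (SE 0.93) for Ifit3, -2.47 (SE 0.62) for Usp18, -3.39 (SE 1.31) for Iigp1, -1.88 (SE 0.23) for Cxcl10 and -2.32 (SE 0.72) for Ifit1. Gbp2b, described above, was the 1 member at least 2-fold higher (1.85%, against 1.36% of all named genes). List medians were 0.42 and 1.09 on the Wrn mutant arrays against -0.24 and -0.42 on the double-mutant arrays. Without the first Wrn mutant array the median difference was -1.16 and 28 members were at least 2-fold lower. Without the duplicate the median was -0.59 and 14 members were. Over all named genes the count at least 2-fold lower rose too, from 171 to 600 and 488, since fewer arrays must be separate.

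Interferon-stimulated response elements, bound by the STAT and IRF factors, hold GAAA repeated after a gap of 2 bases. This core stood on either strand in 24 of the 42 list genes with a RefSeq promoter (57.1%), against 3.23% of the 13200 measured genes with one. The promoters of 3 members at least 2-fold lower are shown because they hold it, with the core or its reverse complement in capitals. They lie on GRCm38.p6 at chr19:34583279-34583578 on the plus strand for Ifit3, chr5:92348840-92349139 on the minus strand for Cxcl10 and chr19:34640639-34640938 on the plus strand for Ifit1.
Ifit3: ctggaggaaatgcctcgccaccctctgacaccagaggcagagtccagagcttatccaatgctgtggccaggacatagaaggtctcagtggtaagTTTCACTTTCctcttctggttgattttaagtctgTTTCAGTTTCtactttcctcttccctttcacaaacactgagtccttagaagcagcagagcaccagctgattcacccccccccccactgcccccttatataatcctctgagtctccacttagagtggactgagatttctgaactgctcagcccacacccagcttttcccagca
Cxcl10: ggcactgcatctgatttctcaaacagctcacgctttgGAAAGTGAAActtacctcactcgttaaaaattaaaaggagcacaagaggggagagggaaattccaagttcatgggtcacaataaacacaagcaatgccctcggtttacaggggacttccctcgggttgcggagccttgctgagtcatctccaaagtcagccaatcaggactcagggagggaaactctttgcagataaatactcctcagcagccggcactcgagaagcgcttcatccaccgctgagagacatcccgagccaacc
Ifit1: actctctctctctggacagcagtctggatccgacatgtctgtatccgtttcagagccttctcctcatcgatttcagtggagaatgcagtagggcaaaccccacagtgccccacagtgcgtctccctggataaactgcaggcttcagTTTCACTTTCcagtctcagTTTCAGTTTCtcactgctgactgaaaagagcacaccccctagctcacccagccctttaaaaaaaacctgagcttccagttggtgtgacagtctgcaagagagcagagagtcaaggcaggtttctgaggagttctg
List genes with the core had a median difference of -0.97 over 24 genes and those without it -0.61 over 18. The 403 genes outside the list that hold the core had a median of 0, so the letters alone did not go with a lower value.

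Related immune families split. In the Ifi200 cluster 5 of 14 listed genes were measured, with a median of -0.75, which was -1.4 without the first Wrn mutant array and -0.38 without the duplicate. Ifi202b was higher by 6.11 and Ifi205 differed by -3.6, and Ifi209 was -1.53 and -0.77 against -2.41 and -2.69. Ifi204 was 0.20 and 1.49 against 0.18 and 0.0099, and the arrays of the DNA sensor gene Aim2 overlapped. Genes of this cluster are close paralogues, and probes may share signal. MHC class I and antigen processing genes had a median of -0.58 over 17, with 14 below 0. Without the duplicate Wrn mutant array the median was -0.13, with 11 below 0 and 6 above, and without the first double-mutant array it was -0.27. The class I heavy chain gene H2-D1 was -0.92 and -0.73 against -2.16 and -2.02, and the peptide transporter gene Tap1 -0.52 and -0.23 against -1.64 and -1.32. All 4 values of each were below wild type, lowest in the double mutant. The immunoproteasome genes Psmb9 and Psmb10 differed by -0.76 and -0.58.

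Inflammatory and NF-kB target genes had a median difference of 0.28 over 34, with 25 above 0 and 3 (8.82%, against 1.36% of all named genes) at least 2-fold higher, which were Ppbp, Il6 and Cxcl1. The median was 0.061 without the duplicate double-mutant array, with 21 above 0, and 0.48 without the first. The cytokine gene Il6 was 0.81 and 1.22 in the Wrn mutant and 2.95 and 2.83 in the double mutant, a difference of 1.87 (SE 0.21). Cxcl1, a neutrophil-attracting chemokine, was -0.32 and 0.52 against 1.78 and 2.74, a difference of 2.16 (SE 0.64). The acute-phase gene Saa3 was 0.99 and 0.59 against 1.66 and 4.65, where the double-mutant arrays differed widely although both were above the Wrn mutant. S100 calcium-binding proteins had a median of 0.64 over 14, of which 13 lay above 0 and 0 below. Without the duplicate double-mutant array the median was 0.31, with 11 above 0 and 2 below. Next to S100a8, S100a4, a protein of motile fibroblasts, was -0.94 and -0.47 against 1.45 and 1.98, a difference of 2.42 (SE 0.36), and S100a13 -1.0 and -0.54 against 0.039 and 0.59.

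Markers of blood cells were set beside these genes. Of 13 neutrophil markers only S100a8 and Mmp8 were at least 2-fold apart, both higher (15.4%, against 1.36% of all named genes). The list median was 0.033. S100a9, the usual partner of S100a8 in calprotectin, was exactly 0 on all 6 arrays, and the granule gene Ltf was 0.76 and 2.19 in the Wrn mutant and exactly 0 on both double-mutant arrays. Platelet and megakaryocyte markers had a median of 0 over 13, with Ppbp higher, Nbeal2 lower and Selp, an adhesion receptor, at -0.33 and 0.10 against 0.98 and 0.64. The arrays of Pf4, a chemokine of the same granules as Ppbp, overlapped. Macrophage markers were lower, with a median of -0.57 over 13 and 10 below 0, among them the mannose receptor gene Mrc1 at 1.46 and 1.28 against 0.082 and 0.58 and the pan-leukocyte gene Ptprc at 1.15 and 0.25 against -1.03 and -0.32. The list median was -0.18 without the first Wrn mutant array and -1.1 without the duplicate. Marco, a scavenger receptor of macrophages, was an exception at -0.72 and -0.28 against 2.47 and 2.28, a difference of 2.88 (SE 0.24). Macrophage list medians were 0.48 and 0.15 on the Wrn mutant arrays and 0 on both double-mutant arrays. Only ratios were used here, so summed levels of markers were not computed, and the part of leukocytes in the interferon and Fcrls differences was not tested. Mast cell markers had a median of 0.099 over 11. The protease gene Mcpt8 of that list, better known from basophils, was -2.62 and -3.02 against -0.83 and -0.95. Erythroid markers had -0.37 over 8, with the haem synthesis gene Alas2 at 1.02 and 1.83 in the Wrn mutant and exactly 0 on both double-mutant arrays.

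**Figure D3:**
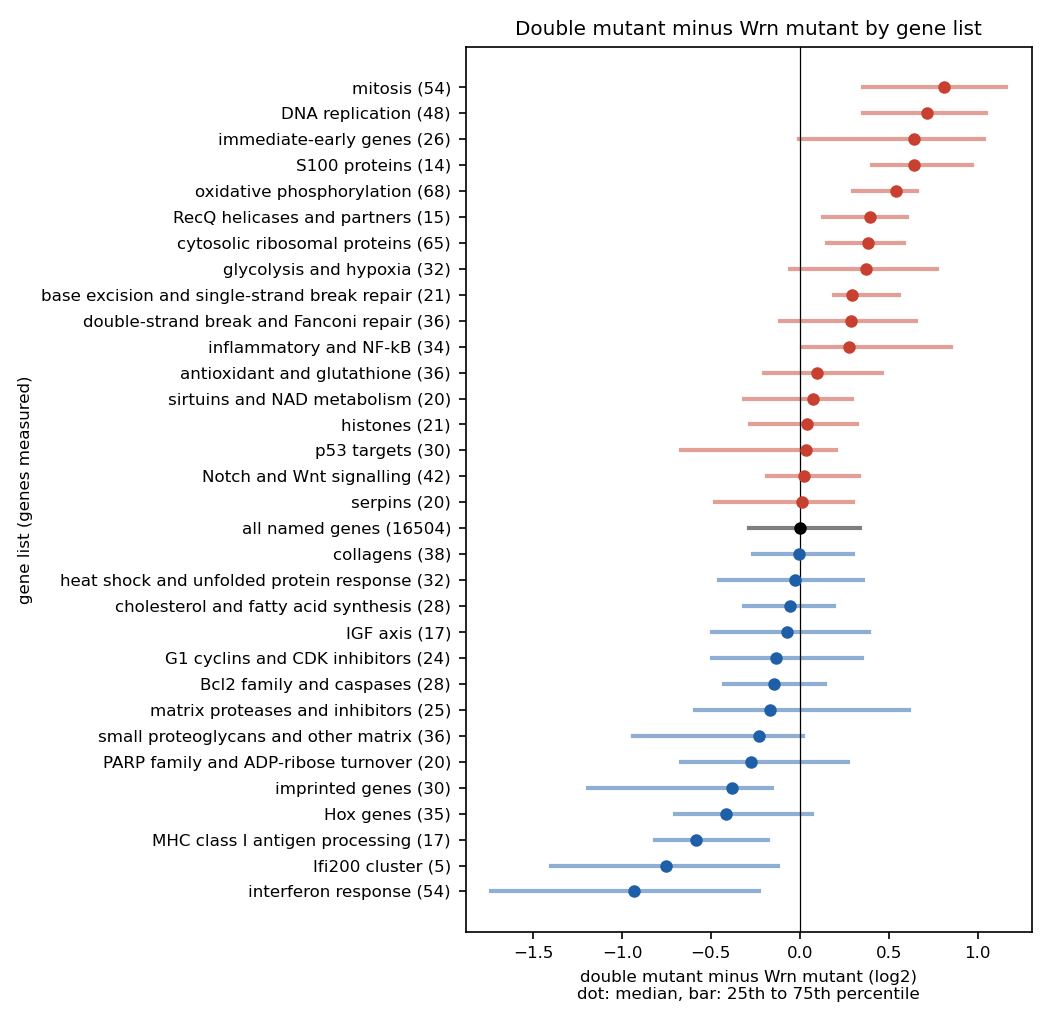
Double mutant minus Wrn mutant on the log2 scale for each of the 31 pathway lists and for all named genes. Dots are list medians and bars run from the 25th to the 75th percentile of the members, with the number of measured genes in brackets. With all arrays the mitosis list is highest at 0.81 and the interferon response list lowest at -0.93, with all named genes at 0.

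Targets of p53 lay on both sides of 0. The median over 30 genes was 0.036, with 16 above 0 and 14 below. The 2 members at least 2-fold apart (6.67%, against 1.04% of all named genes) were lower. The groups were separate with the double mutant higher in 6 (20%, against 24.0%) and lower in 9 (30%, against 17.6%). The p53 targets named here all lay lower in the double mutant. Igfbp3, which binds insulin-like growth factors, was 0.92 and 0.69 in the Wrn mutant and -1.55 and -1.11 in the double mutant, a difference of -2.14 (SE 0.25). Gadd45a, a growth arrest gene, was 0.65 and 0.59 against -1.2 and -0.58, a difference of -1.52 (SE 0.31). Both crossed from above to below wild type. The apoptotic BH3-only genes Bbc3, at -0.54 and -0.92 against -1.81 and -1.85, and Pmaip1, at -0.12 and -0.23 against -1.01 and -1.19, were lower too, and Trp53inp1, an autophagy and death regulator, differed by -1.14. Over 28 genes of the Bcl2 family and caspases the median was -0.15. Bok, a pro-apoptotic Bcl2 relative, was -0.11 and -0.47 against 1.49 and 1.86, higher in the double mutant, while the inflammatory caspase genes Casp1, at 0.77 and 0.77 against -0.31 and -0.74, and Casp4, at -0.23 and 1.0 against -1.09 and -1.58, were lower.

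Immediate-early genes, which encode transcription factors switched on within minutes of a growth or stress signal, had a median of 0.64 over 26, with 19 above 0 and 2 (7.69%, against 1.36% of all named genes) at least 2-fold higher. Without the duplicate double-mutant array the median was 0.24, with 17 above 0, and without the first it was 0.93. The nuclear receptor gene Nr4a1 was -0.37 and -0.083 in the Wrn mutant and 1.98 and 2.21 in the double mutant, a difference of 2.32 (SE 0.18). Egr2 was 0.60 and 0.36 against 2.38 and 2.13, and Egr1 0.59 and 0.80 against 1.59 and 1.95. The AP-1 subunit genes Junb, at 0.12 and 0.57 against 1.52 and 1.55, and Jun, at -0.28 and -0.24 against 0.61 and 0.71, were separated as well. For Nr4a1 and Jun the Wrn mutant lay just below wild type, and for the Egr genes and Junb just above it.

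**Figure D4:**
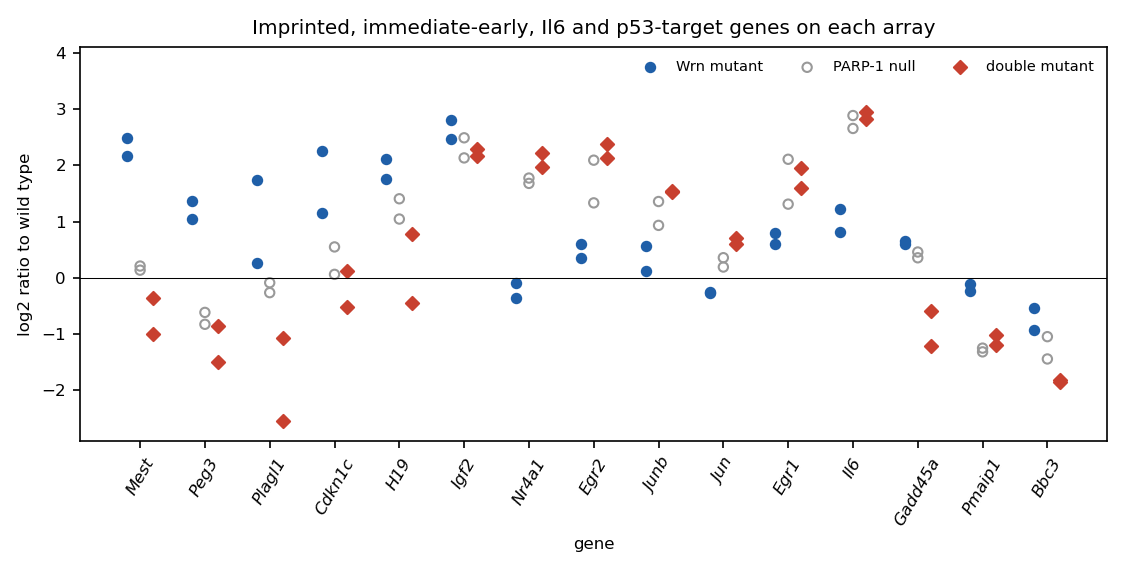
Log2 ratio to wild type on each array for imprinted genes (Mest to Igf2), immediate-early genes (Nr4a1 to Egr1), Il6 and p53 targets (Gadd45a to Bbc3). Filled circles are Wrn mutant, open circles PARP-1 null and diamonds double-mutant arrays. Mest differed by -3.0 between double mutant and Wrn mutant and Nr4a1 by 2.32, while Igf2 was above 2 on all 6 arrays.

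Imprinted genes, expressed from one parental copy and many of them active in embryonic growth, had a median of -0.38 over 30, with 25 below 0. The 5 members at least 2-fold lower (16.7%, against 1.04% of all named genes) were Mest, Peg3, Zim1, Plagl1 and Cdkn1c. Zim1 was listed at exactly 0 on both double-mutant arrays, and with exact zeros as missing 4 members were that far lower. Peg3, a zinc finger gene next to Zim1 on its chromosome, was 1.36 and 1.04 in the Wrn mutant and -1.49 and -0.85 in the double mutant, a difference of -2.38 (SE 0.36). Plagl1, a transcription factor known to act on other imprinted genes, was 1.74 and 0.26 against -2.54 and -1.07, a difference of -2.8 (SE 1.04). The non-coding H19 was 1.76 and 2.1 against -0.45 and 0.79. In contrast, Igf2, which lies beside H19, was high on every array, at 2.47 and 2.81 against 2.28 and 2.17, and differed by -0.42. The insulin-like growth factor axis as a whole had a median of -0.07 over 17 genes, with Igf1 at 1.7 and 0.81 against -0.36 and 0.051.

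Genes of energy and protein metabolism depended on the double-mutant array used. The 68 genes of oxidative phosphorylation had a median difference of 0.54, 61 of them above 0 and 40 with separate groups (58.8%, against 24.0% of all named genes), but 0 were at least 2-fold higher, against 1.36%. The median was 0.19 without the duplicate double-mutant array, with 47 above 0, and 0.85 without the first. Cyc1 of complex III was -0.17 and -0.22 against 0.41 and 0.42, and the ATP synthase gene Atp5g3 -0.059 and 0.11 against 0.72 and 1.69. List medians on the double-mutant arrays were 0.30 and 0.87, the second far above the first. Cytosolic ribosomal proteins showed this more strongly, with medians of 0.043 and 1.22 in the double mutant against 0.007 and 0.42 in the Wrn mutant. PARP-1 null medians were 0.22 and 0.94 for this list and 0.24 and 0.59 for oxidative phosphorylation. The duplicate array was thus the higher one in each genotype for both lists. The ribosomal median difference of 0.39 over 65 genes turned to -0.11 without the duplicate double-mutant array. Its groups were separate for 7 members (10.8%, against 24.0%), Rpsa and Rplp1 among them. Glycolysis and hypoxia genes had a median of 0.38 over 32, which was 0.095 without the duplicate double-mutant array and 0.61 without the first. The lactate transporter gene Slc16a3 was 0.56 and 0.047 against 2.06 and 2.33, a difference of 1.89 (SE 0.29), and the prolyl hydroxylase gene Egln3, itself induced by hypoxia, 0.36 and -0.63 against 1.46 and 1.69. Cholesterol and fatty acid synthesis had a median of -0.055 over 28, with the sterol demethylase gene Cyp51 at -0.80 and -0.62 against -2.18 and -1.48. Antioxidant genes had 0.096 over 36, where the quinone reductase gene Nqo1 was higher, at -1.54 and -1.11 against -0.18 and 0.11, and catalase, Cat, lower, at -0.11 and -0.43 against -1.7 and -0.99. Heat shock and unfolded protein genes had -0.027 over 32. The chaperone gene Hsph1 was 0.95 higher, and the integrated stress factor Atf4 was 0.013 and -0.68 against -1.53 and -1.22.

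Matrix genes lay on both sides of 0, and the medians of the lists below changed sign under at least 1 setting. Collagens had a median of -0.0052 over 38, with Col14a1 at 1.31 and 0.90 against 0.27 and -0.22 and the collagen cross-linking enzyme Lox at 0.61 and 1.09 against 1.62 and 2.5. Small proteoglycans and other matrix genes had a median of -0.23 over 36, and 4 (11.1%, against 1.04% of all named genes) were at least 2-fold lower. Beside Aspn these were Mgp, an inhibitor of calcification, at 0.39 and 1.02 against -1.25 and -0.88, the microfibril gene Mfap2 at 0.58 and 1.25 against -0.66 and -0.66, and Ogn, another small leucine-rich proteoglycan, at 1.51 and 1.6 against -0.18 and 0.35. All of them were above wild type on both Wrn mutant arrays. The other microfibril gene Mfap5 ran opposite, at -0.51 and -0.012 against 1.13 and 1.26. Matrix proteases and their inhibitors had a median of -0.17 over 25, with 2 members (8%, against 1.36% of all named genes) at least 2-fold higher. Mmp3, or stromelysin, was -1.9 and -2.19 against 0.21 and 1.25, a difference of 2.77 (SE 0.54), and the collagenase Mmp8 0.75 and -0.11 against 2.17 and 3.5. Among serpins, at 0.012 over 20, Serpinb2, an inhibitor of plasminogen activators, was -2.34 and -2.45 against 0.34 and -0.30, a difference of 2.42 (SE 0.32).

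Few genes of position and fate were far apart. The Hox genes had a median of -0.42 over 35, 23 of them below 0, and -0.1 without the duplicate Wrn mutant array. Their groups were separate with the double mutant lower in 14 (40%, against 17.6% of all named genes) and higher in 5 (14.3%, against 24.0%). Hoxb9 was -0.098 and -0.43 against -1.83 and -1.14, and 0 members were at least 2-fold apart. Notch and Wnt genes had 0.025 over 42. Sfrp4, a secreted Wnt inhibitor, was 1.32 and 1.58 against -0.11 and 0, with an exact 0 on 1 array, and Wnt5b 0.44 and -0.15 against 1.5 and 1.36. Histone genes had 0.038 over 21, with H2bc18 and H2ax as the 2 members at least 2-fold higher (9.52%, against 1.36% of all named genes).

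Markers of fibroblasts and of other cells an embryo culture can hold were compared last. Fibroblast markers had a median of 0.20 over 16, and array medians were 0.06 and 0.94 in the Wrn mutant against 0.54 and 0.90 in the double mutant. The list median was -0.028 without the first Wrn mutant array and -0.037 without the duplicate double-mutant array. Ratios to wild type do not show whether a marker was expressed, so this does not check the label itself. Neural crest and glial markers had a median of 0.42 over 12, which was 0.21 without the duplicate double-mutant array. Besides Sox10, the crest factor Foxd3 was 0.66 and 0.22 against 2.05 and 1.56 and Pax3 0.77 and -0.27 against 2.12 and 1.12, while the arrays of the glial gene Erbb3 overlapped. Mesothelial markers had a median of 0.76 over 12, but the Wrn mutant arrays were at 1.2 and -0.47, the list median was 0.28 without the duplicate Wrn mutant array, and Gpm6a was lower, at 0.77 and 1.02 against -0.52 and -0.41. Smooth muscle markers had 0.26 over 10, which turned to -0.41 without the duplicate double-mutant array. Endothelial markers had 0.023 over 12, with 6 above 0 and 4 below. The groups were separate with the double mutant higher in 3 (25%, against 24.0% of all named genes) and lower in 4 (33.3%, against 17.6%). Among the lower were Emcn and the VEGF receptor genes Flt1 and Kdr, and no higher member is named here. Flt1, listed at 0 on 1 array, was 0 and 0.88 against -0.87 and -0.80. Kdr was 0.57 and 0.52 against -0.55 and -0.15. Epithelial markers had 0.081 over 13, with the desmosomal gene Dsp at -0.68 and -0.73 against 0.63 and 0.49. The median was 0 for 13 neuron markers and -0.023 for 16 skeletal muscle markers. It was -0.23 for 10 adipocyte and -0.15 for 11 cartilage and bone markers, with Pparg, the fat cell regulator, at -0.43 and -0.55 against -1.35 and -1.59.

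Of the genes of largest gap named above, Ifi202b, Ptprv, Ifi205 and Apoa2 lie on the chromosome of Parp1, mouse chromosome 1. More of them, S100a8, Gbp2b, Lce1i, Chil3, H2bc18, Fcrls and Emcn, lie on chromosome 3. Measured genes were set in annotation order around Parp1. Among 189 measured neighbours, 100 before and 89 after, 10 (5.29%) were at least 2-fold apart, against 2.4% of all named genes. None was among the nearest 25 on either side, and 4 of 100 were within 50. Before Parp1, the lipoprotein gene Apoa2 lay 99 genes away, the lectin gene Itln1 84, the leukocyte receptor genes Cd48 80 and Cd84 78, the adhesion gene Cadm3 46, Ifi202b 42 and Ifi205 41. After it, the phosphatase gene Dusp10 lay 32 away, the kinetochore gene Cenpf 51 and the cortisone reductase gene Hsd11b1 81. They did not share a direction: 6 were higher and 4 lower. Hsd11b1 was -0.78 and -0.31 in the Wrn mutant and 3.19 and 2.01 in the double mutant, Cd48 1.67 and 0.70 against -1.14 and -1.09, and Itln1 0.13 and 0 against 2.13 and 1.51. Around Wrn, on chromosome 8, 4 of 200 neighbours (2.0%) were that far apart. By chromosome the share ran from 1.44% to 3.82% among the autosomes, highest on chromosome 3, with 3.57% on chromosome 14 and 3.36% on chromosome 1.

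**Figure D5:**
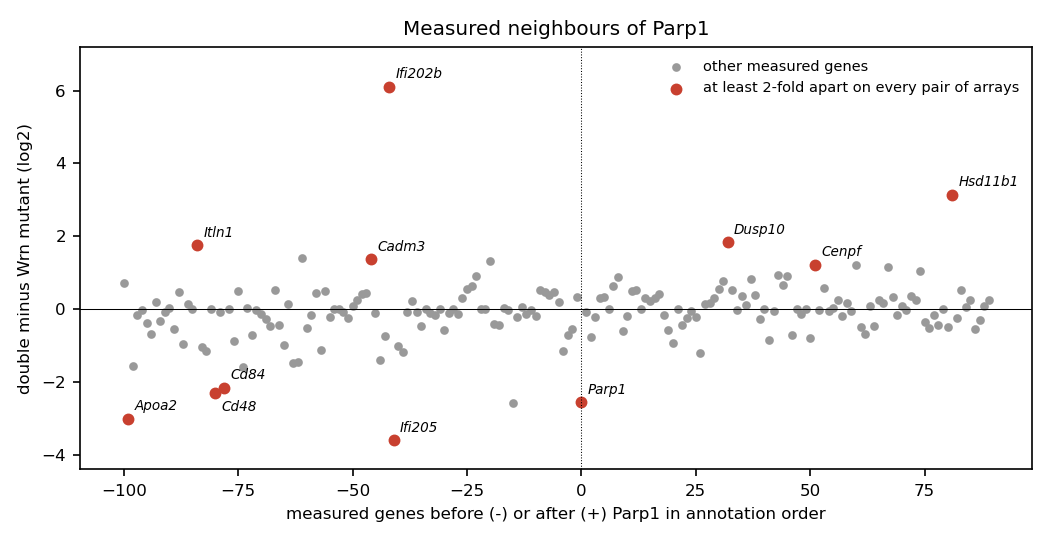
Double mutant minus Wrn mutant on the log2 scale for the 189 measured neighbours of Parp1, by the number of measured genes between them and Parp1 in annotation order. Red points are at least 2-fold apart on every pair of arrays. They number 10 besides Parp1, from Ifi202b at 6.11 to Ifi205 at -3.6, and none is among the nearest 25 genes on either side.

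Whether loss of PARP-1 differed with the Wrn deletion from what it was without it was tested as the difference above minus the ratio of PARP-1 null to wild type. The double-mutant and PARP-1 null values share the wild-type partner, and a dye bias does not cancel here. No gene passed (limma, Benjamini-Hochberg), 1963 genes (11.9%) had an unadjusted p under 0.05, and the smallest adjusted p was 0.0628. Counts with 1 array left out are not given, since a genotype with 1 array has no spread of its own. For Parp1 itself the value was -0.11. For Ifi202b the difference on the Wrn mutant background was 6.11, beside 5.1 and 5.08 in the PARP-1 null, and for Ctsc -4.87, beside -4.19 and -4.55. S100a8 was 5.94 beside 1.36 and 2.0, and Ppbp 5.5 beside 1.36 and 1.59, with interaction values of 4.26 and 4.02. Mest was -3.0 beside 0.14 and 0.21, an interaction of -3.17. For S100a8, Ppbp, Mest, Ifi202b and Ctsc, the value on the Wrn mutant background lay further from 0 than in the single mutant. These genes were picked for their gap between double mutant and Wrn mutant, which favours a larger value there, and no interaction passed the test. By absolute t, the interaction was furthest above 0 for Bcl2l15, a Bcl2 relative, at 2.86, the intestinal glutathione peroxidase gene Gpx2 at 2.88, Olfr1448 at 2.67, Mcemp1 at 1.76 and the matrix gene Spon2 at 1.02. Furthest below 0 were the cation channel gene Trpc4 at -1.16, Phyhd1 at -2.72, Tex47 at -2.49, Herpud1, of endoplasmic reticulum protein disposal, at -1.2, and Omd, a small leucine-rich proteoglycan of bone, at -1.59. Each of the 10 had an adjusted p of 0.0628, and Trpc4, Tex47 and Mcemp1 included groups listed at exactly 0.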

How the data were processed

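Cytoplasmic RNA of 3 mutant genotypes was hybridised with wild-type RNA on 6 Agilent arrays, 2 per genotype. The authors deposited 1 log10 ratio per spot for 22393 spots. Base 10 was inferred because no value exceeds 2 in size, and the sources used here state neither the background correction nor which sample is the numerator. The values were multiplied by log2 of 10, 3.32. By the platform annotation 18218 spots had 1 symbol, 16 had several and 4159 had none, and spots of a gene were averaged to 16504 named genes among 20679 features. Limma 3.58.1 in R 4.3.3 fitted 1 coefficient per genotype (3 residual and 0.66 prior degrees of freedom), with Benjamini-Hochberg correction over all features, and was tested on simulated data. The labels do not tie the duplicate array to the second litter, so p-values measure the spread between arrays, whatever its source. Y-linked genes differed between arrays of one genotype, as given above, and how far the spread is technical was not tested. Signal intensity was not used, and precision is limited by the number of arrays. Across all features, same-numbered arrays did not deviate together (correlations of -0.112, -0.166 and 0.145), so no block was used. The list medians of cytosolic ribosomal proteins and of oxidative phosphorylation were nevertheless higher on the duplicate array in each genotype.

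Named genes were, per direction, the 15 of largest gap between the genotypes (no gene passed) without a spot at exactly 0 or at the limit of the scale, the 3 of largest gap with an exact 0, up to 5 per list, members named for their role, neighbours of Parp1 at least 2-fold apart, and 5 per direction of the interaction. The 31 pathway and 15 cell type lists hold 1280 genes, 1154 of them measured. The comparison, lists and rules were chosen with earlier results of these data known. RefSeq (GRCm38.p6) matched 16462 named genes by Entrez ID and gave gene order and promoters. Alternatives were scale and quantile normalization, exact 0 or limit values as missing, 1 spot per gene, the array number as a block, a robust prior, the 4 arrays alone and each array left out. Plots used matplotlib 3.10.9 in Python 3.11.15.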

Additional observations from a re-analysis of the deposited data

Results flagged for a closer look

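In 3 gene lists the median difference between double mutant and Wrn mutant lay on one side of 0 for every pair of arrays, while both PARP-1 null arrays lay on the other side of 0 against wild type. The DNA replication list had a median of 0.716, with pairs from 0.338 to 1.05, beside -0.0437 and -0.0128 on the PARP-1 null arrays. The interferon response list had -0.931, with pairs from -1.18 to -0.514, beside 0.0747 and 0.0566. The list of ADP-ribose turnover had -0.273, with pairs from -0.271 to -0.08, beside 0.234 and 0.087. The difference between the 2 backgrounds was not tested for these lists, a dye bias does not cancel against wild type, and the PARP-1 null medians of replication and interferon genes were close to 0.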

How the results depend on the processing

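The count of genes that passed for double mutant minus Wrn mutant was 0 as reported, with the 4 arrays alone, with quantile normalization and with the array number as a replicate block, which changed no call. It was 3 with scale normalization, 2 with a robust prior and 39 with exact zeros as missing, 18 higher and 21 lower, 21 of them among the 30 genes of largest gap. Leaving out 1 array gave 0 to 387: 387 without the first and 60 without the second Wrn mutant array, 15 without the first double-mutant array and 17 without its duplicate, and 0 without either PARP-1 null array. The lone array is then assumed to vary like the other genotypes. The interaction count, 0 as reported, was 88 with quantile normalization and 55 with exact zeros as missing, and ranged from 0 to 356 with 1 array left out, 356 without the first Wrn mutant array and 265 without the first PARP-1 null array. Genes at least 2-fold apart numbered 225 to 577 higher and 171 to 897 lower with 1 array left out, by construction since fewer arrays must be separate, and 166 to 237 and 150 to 190 under the other settings. Parp1 stayed at -2.56 with an adjusted p of 0.0469 in limma with exact zeros as missing, past the threshold. Its adjusted p in limma was between 0.0986 and 0.212 under the other settings that left out no single array, 0.206 with the replicate block. Its difference ran from -2.75 to -2.37 with 1 array left out. Among the single genes followed through the settings, direction reversed for Wrn, to 0.0043 without the first double-mutant array (-0.46 without its duplicate), and for Psmb10, to 0.11 with quantile normalization. Of the 46 list medians, 38 moved by over 1.5 times with 1 array left out, and 19 changed sign under at least 1 setting. The ribosomal protein median turned to -0.11 and the smooth muscle median to -0.41 without the duplicate double-mutant array (0.96 and 0.93 without the first). The lowest and highest values over all settings were -0.13 and 0.21 for sirtuins and NAD metabolism, -0.3 and 0.15 for G1 cyclins and CDK inhibitors, -0.11 and 0.038 for p53 targets, -0.044 and 0.33 for antioxidant genes, -0.27 and 0.11 for cholesterol and fatty acid synthesis, and -0.36 and 0.12 for the IGF axis. They were -0.16 and 0.21 for collagens, -0.54 and 0.0022 for small proteoglycans, -0.223 and 0.175 for matrix proteases, -0.09 and 0.048 for serpins, -0.035 and 0.13 for histones, -0.13 and 0.36 for heat shock genes, and -0.015 and 0.11 for Notch and Wnt genes. Among marker lists they were -0.037 and 0.51 for fibroblast, -0.026 and 0.23 for neutrophil, -0.26 and 0.028 for endothelial, and -0.023 and 0.19 for skeletal muscle markers. The cause was not tested. The median of all genes moved by at most 0.048 under any setting.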
